A study of Mus musculus with 24 samples.

Results

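Expression was examined for 10 of the 21368 genes that could be named on the arrays, the genes of the myosin chains of striated muscle. They encode the heavy chains Myh1, Myh2, Myh4, Myh6 and Myh7 and the light chains Mylpf, Myl2, Myl3, Myl4 and Myl7, were chosen by symbol and not by their values, and all 10 had a named probe. Skeletal muscle, heart, liver and brain were taken from each of 6 female mice. KI mice A, B and C carried the I312R mutation in Rap1 (Terf2ip), a subunit of the telomere-capping complex shelterin, made with CRISPR/Cas9 and back-crossed to C57BL/6N, and WT mice D, E and F carried the wild-type gene. Mice C and F were 14 months old and the others 15 months, and each mouse gave all 4 tissues, so that 24 arrays form 8 groups of 3. The labels name no treatment and call the KI mice only mutant, while the paper describes the knockin females on its arrays as homozygous. Neither the muscle that was taken nor the part of the heart is given in the sources used here.

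Myosin is the motor of the thick filament: a pair of heavy chains forms each molecule, and an essential and a regulatory light chain sit on the neck of each head. The heavy chain sets the speed of contraction. Fast skeletal fibres use the chains of Myh1 (2X), Myh2 (2A) and Myh4 (2B), while slow fibres share Myh7, Myl2 and Myl3 with the ventricle of the heart. The adult mouse heart runs mainly on Myh6, and its atria use the light chains Myl4 and Myl7 where the ventricles use Myl3 and Myl2.

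Levels are log2 signals relative to the 75th percentile of their own array, so that a difference of 1 is a doubling, and they can be compared between samples for a gene but not between genes, whose probes differ in brightness. The signal at that percentile lay between 312.4 and 2510.4 over the 24 arrays, between 49.4% and 68.4% of probes gave a signal well above background, and no spot was saturated. Marker lists followed the labelled tissues. The mean level of 10 skeletal muscle fibre markers was 7.65 to 8.19 in muscle and -1.56 to -1.11 in heart, and that of 9 cardiomyocyte markers was 5.96 to 6.39 in heart and -3.54 to -2.79 in muscle. The liver of KI mouse C stood apart, with skeletal muscle fibre markers at -0.31 against -4.98 to -4.39 in the other 5 livers, and the brain of KI mouse C held hepatocyte markers at 3.50 against -3.36 to -2.03. The comparisons of muscle and of heart with liver are given with and without that liver, as is Myl3 between KI and WT livers. The fit over all 24 arrays, used between tissues, takes a gene's error from all tissues. That liver therefore also enters tests between other tissues. Terf2ip itself, whose point mutation is no deletion, was well above background on every array, with means between 0.34 and 1.09 in KI groups and between 0.55 and 1.22 in WT groups.

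The fast heavy chains were high and even in muscle. Myh4 stood at 9.99, 9.47 and 9.64 in KI mice A, B and C and at 9.70, 9.90 and 9.52 in WT mice D, E and F. Myh1 stood at 8.96, 9.03 and 8.95 in the KI and at 8.97, 8.57 and 8.83 in the WT mice. Highest and lowest mouse differed 1.43-fold for Myh4 and 1.38-fold for Myh1, and the 3 KI and 3 WT values overlapped for both. Myh2 varied more, with 8.46, 9.12 and 8.999 in the KI and 9.11, 8.11 and 9.04 in the WT mice, and its lowest values were in A and E. The SD over the 6 muscles was 0.17 for Myh1, 0.21 for Myh4 and 0.42 for Myh2, against a median of 0.26 over the 13010 genes detected in all 6.

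In heart, Myh1 and Myh4 were not well above background on any array, and Myh2 was so on 1 array, that of KI mouse B. Myh1 was at least 19070-fold and Myh4 at least 33570-fold higher in muscle than in heart, set against the dimmest signals that were well above background. In brain all 3 genes were detected in all 6 mice at low levels, -4.50 to -3.72 for Myh1, -2.73 to -1.68 for Myh2 and -4.74 to -3.33 for Myh4. For Myh1 and Myh4 the order of the tissues was thus muscle, then brain, then heart, while 4 of 6 livers were not well above background, and brain lay at least 2.12-fold and 2.59-fold above heart. Both brain differences passed the test in limma (adjusted p = 0.00530 and 0.00405), but not after the normexp background correction (adjusted p = 0.333 and 0.263).

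The fast regulatory light chain Mylpf had probes that did not match each other. The probe used by rule, the brighter one over all 24 arrays, was dim everywhere, with medians of -2.05 in muscle, -3.53 in heart, -3.08 in liver and -4.75 in brain. The other probe read 3.99, 2.34 and 3.77 in the muscles of KI mice A, B and C and 3.70, 3.94 and 3.76 in the WT muscles. It was not well above background in any heart, liver or brain, and was at least 484-fold higher in muscle than in heart. Both probes were lower in heart than in muscle, by -1.52 for the first (SE 0.31, adjusted p = 2.65e-04) in limma. Mylpf was lowest in the muscle of KI mouse B with both probes.

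Myh6, the fast cardiac heavy chain, was even across hearts, at 9.03, 8.74 and 8.92 in the KI and at 8.71, 8.81 and 8.99 in the WT mice. It was detected in all 6 muscles too, between -0.94 in WT mouse E and 1.60 in KI mouse B with a median of 0.39. Its other probe lay between 4.14 and 4.77 in heart and was well above background in only 2 of 6 muscles. Heart exceeded muscle by 8.43 (SE 0.40, adjusted p = 1.50e-12, limma). Muscle exceeded liver by 4.86 (adjusted p = 1.31e-09) with the probe used, and the other probe turned that direction, with muscle below liver by -1.23 (adjusted p = 0.00958). Of all 10 genes this was the one called difference that turned with the processing.

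Myh7, the slow and ventricular heavy chain, lay between 4.64 and 5.74 in the hearts, with a median of 5.15. In the 6 muscles it was 1.75, 9.60 and 5.35 in KI mice A, B and C and 7.68, 2.38 and 8.33 in WT mice D, E and F. The muscles thus spanned a 232-fold range that ran through both genotypes, with A and E at the bottom and B and F at the top, and the hearts sat inside it. No difference between heart and muscle was called in the limma fit (-0.73, 95% interval -3.02 to 1.57, adjusted p = 0.568). That fit takes its error from all tissues, so the interval does not measure the spread of the muscles alone. The SD of Myh7 was 3.25 in muscle, 0.39 in heart, 1.71 in liver and 0.44 in brain. In brain, Myh7 was detected at 1.77 to 2.91, above every liver, and in liver it was well above background in C, D and F.

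Both cardiac heavy chain genes, and Myh7b beside them, hold a microRNA that is cut from the heavy chain transcript. They are shown because the host genes differ in where they were found, while their seeds are nearly the same. The mature forms from RefSeq (GRCm38.p6) are given 5′ to 3′ with the seed, bases 2 to 8, in capitals. The miRNA of Myh6 lies at chr14:54949072-54949093 (- strand), that of Myh7 at chr14:54975710-54975731 (- strand) and that of Myh7b at chr2:155622893-155622913 (+ strand). The miRNAs themselves were not measured here.
mmu-miR-208a-3p: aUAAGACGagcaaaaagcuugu
mmu-miR-208b-3p: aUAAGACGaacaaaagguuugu
mmu-miR-499-5p: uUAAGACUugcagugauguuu
The seeds in Myh6 and Myh7 are identical, and the seed in Myh7b differs from them in its last base. Myh7b, chosen after its values were seen, was at 6.06 to 6.52 in the hearts and ranged from -2.41 in the muscle of KI mouse A to 6.31 in that of KI mouse B.

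**Figure D1:**
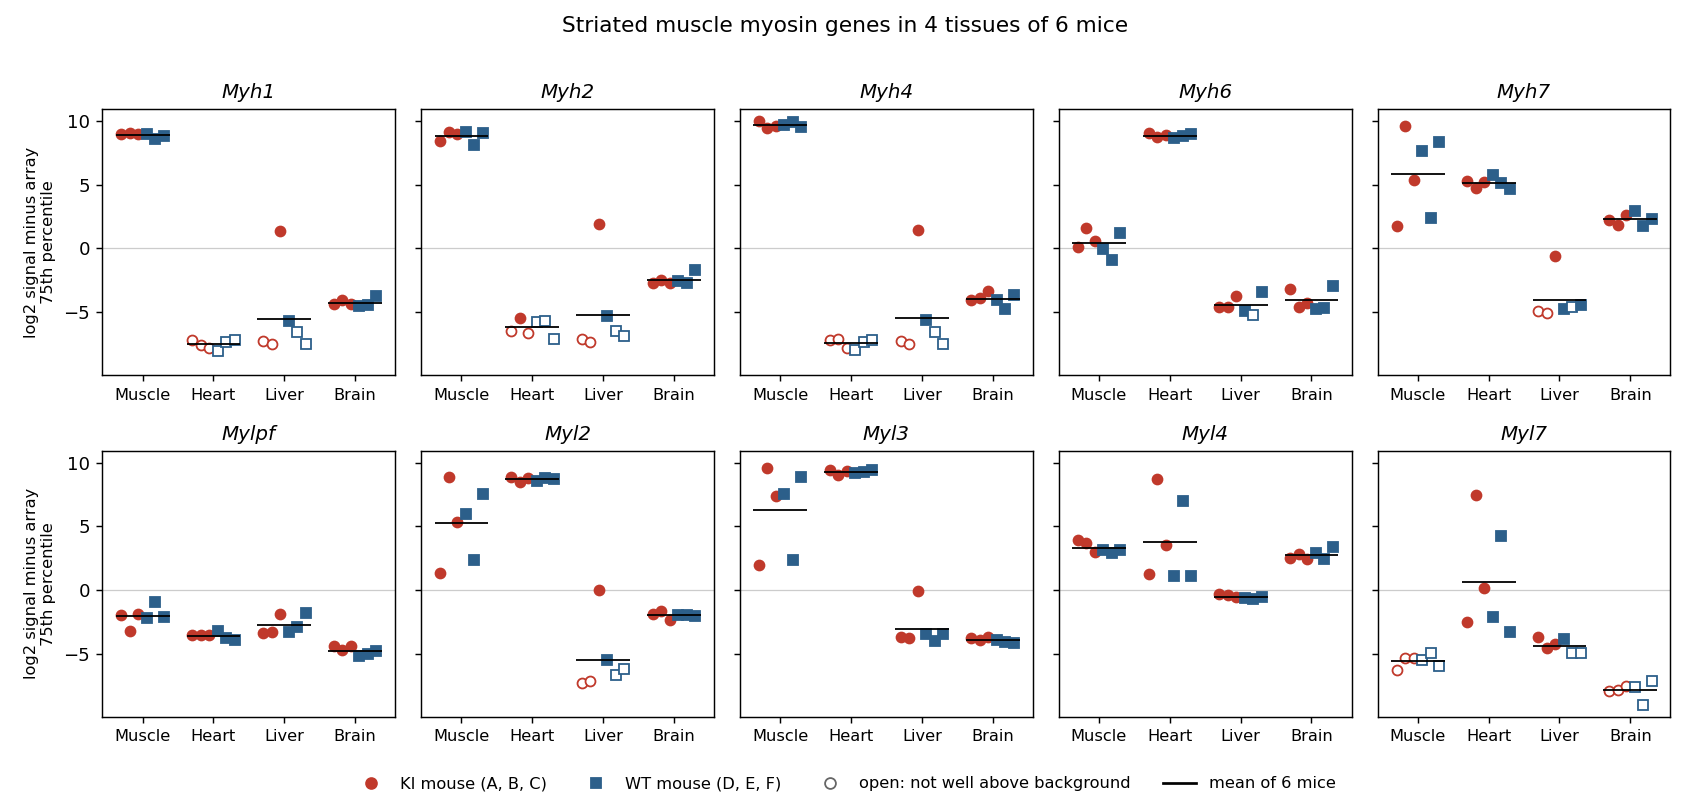
Level of each of the 10 genes (y axis, log2 signal minus the array's 75th percentile) in muscle, heart, liver and brain of 3 KI (circles) and 3 WT mice (squares), with open symbols not well above background and a bar at the mean of 6. Myh7, Myl2 and Myl3 spread in muscle, Myl4 and Myl7 in heart, and 6 genes have 1 liver, that of KI mouse C, above the other 5.

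The slow light chains varied with Myh7 from muscle to muscle. Myl2, the slow and ventricular regulatory light chain, stood at 1.34, 8.83 and 5.34 in KI mice A, B and C and at 5.93, 2.39 and 7.51 in WT mice D, E and F. Myl3, its essential counterpart, stood at 1.98, 9.60 and 7.37 in the KI and at 7.50, 2.34 and 8.89 in the WT mice. The order of the mice was the same for all 3 genes: A, E, C, D, F and B from low to high. In the hearts of the same mice Myl2 moved only between 8.45 and 8.87 and Myl3 between 9.05 and 9.44. By SD over the 6 muscles, Myl3 ranked 6th (3.30), Myh7 7th (3.25) and Myl2 12th (2.89) from the widest of the 13010 genes well above background in all 6 muscles.

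Over the 6 muscles the Pearson correlation with Myh7 was 0.984 for Myl2 and 0.969 for Myl3. It was 0.998 for Tnnt1 and 0.983 for Tnni1, the slow skeletal isoforms of troponin T and troponin I. Each of the 4 had a Spearman rho of 1.0 and an adjusted p of 0.00521 for Pearson's r in an exact two-sided permutation test, adjusted over 15 relations. Without A and E, the mice farthest from the median, the values were 0.917, 0.870, 0.993 and 0.974. Tnnt1 ran from 2.01 in A to 9.43 in B and Tnni1 from -1.50 to 6.38 in the same mice. All 6 muscle arrays lay on 1 slide, so that no split by slide was possible. The pairs were chosen with earlier results of these data known. The p-values of the relations, here and below, are therefore descriptive and not an independent test.

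The fast chains went with the slow set to different degrees. Myh4, the chain of the fastest fibres, correlated with Myh7 at -0.944 (adjusted p = 0.0208, exact permutation test), and at -0.685 without A and E. After quantile normalization this was -0.594 (adjusted p = 0.252), so the relation depended on the scaling. Myh2 correlated with Myh7 at 0.885 (adjusted p = 0.0301, exact permutation test), and at 0.772 without A and E. Myh4 with Myh2 gave -0.845 (adjusted p = 0.0625) and Myh4 with Myh1 -0.406 (adjusted p = 0.481, both by exact permutation test). The genes that followed Myh7 most closely over the 6 muscles, of 13009 others, were Tnnt1 (r = 0.998), Cspg4 (0.991), Gm3646 (0.989), Wasf2 (0.987) and Bfsp2 (0.986), and 367 genes exceeded an r of 0.9. Those closest to Myh4 were Tmem87a (0.998), Pop1 (0.997), E130308A19Rik (0.996), Pvalb (0.995), the calcium buffer of fast fibres, and Mybbp1a (0.994), with 849 genes above 0.9. Among the muscle arrays, the 75th percentile signal used for scaling was lowest in A (312.4), where Myh4 was highest. It was highest in F (589.5) and B (571.6), where Myh4 was lowest. The part of the scaling in these correlations was not tested.

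**Figure D2:**
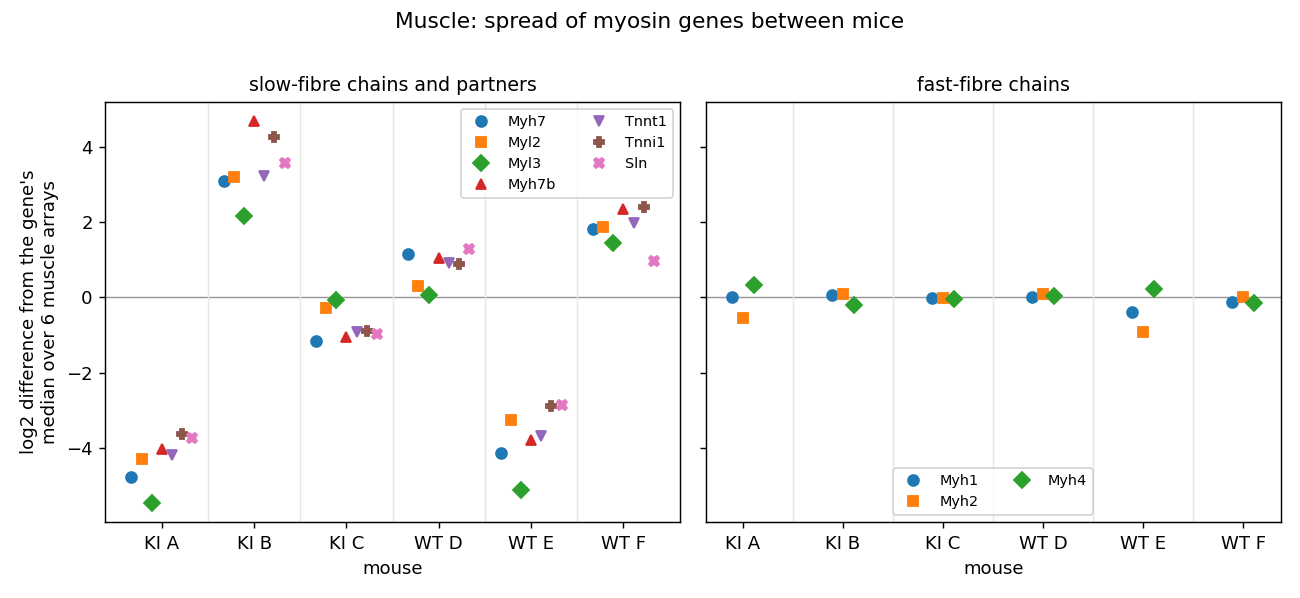
Difference of each gene from its own median over the 6 muscle arrays (y axis, log2) for each mouse (x axis), slow chains and partners on the left and fast heavy chains on the right. The slow genes lie low in KI mouse A and WT mouse E and high in KI mouse B and WT mouse F, while Myh1 and Myh4 stay within a 1.43-fold range.

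A list of 8 slow fibre genes that are not myosins includes Tnnt1 and Tnni1, already shown above. Its mean level in muscle was 0.78 in KI mouse A, 6.10 in B and 2.91 in C. In WT mice D, E and F it was 3.88, 0.92 and 4.71, so that the order was A, E, C, D, F and B from low to high. Beside Tnnt1 and Tnni1, Atp2a2 and Tnnc1 had this order. Casq2, Csrp3, Myoz2 and Tpm3 had another, with B highest for each. The list of 10 fast fibre genes stayed between 8.47, in B, and 9.06, in A. Markers of smooth muscle, 6 genes, were lowest in A (2.40) and highest in B (3.83), and their part in the spread was not tested. In whole tissue, fewer slow fibres and less slow myosin RNA per fibre cannot be told apart.

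The promoters of the slow genes and of Myh4 are shown because the slow genes spread widely between the muscles and Myh4 did not. Each is the 250 bases before the annotated start from RefSeq (GRCm38.p6), 5′ to 3′, at chr14:54994550-54994799 (- strand) for Myh7, chr5:122092939-122093188 (+ strand) for Myl2, chr9:110763428-110763677 (+ strand) for Myl3 and chr11:67237562-67237811 (+ strand) for Myh4. Capitals mark matches on either strand to TATAAA, to CATTCC (the MCAT element), to the MEF2 consensus and to the CArG box consensus. Where a gene has several starts, the one farthest downstream is shown.
Myh7: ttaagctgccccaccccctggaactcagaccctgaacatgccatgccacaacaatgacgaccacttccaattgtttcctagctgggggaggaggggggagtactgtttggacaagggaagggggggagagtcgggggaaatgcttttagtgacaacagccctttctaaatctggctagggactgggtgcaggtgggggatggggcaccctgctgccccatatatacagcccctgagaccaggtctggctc
Myl2: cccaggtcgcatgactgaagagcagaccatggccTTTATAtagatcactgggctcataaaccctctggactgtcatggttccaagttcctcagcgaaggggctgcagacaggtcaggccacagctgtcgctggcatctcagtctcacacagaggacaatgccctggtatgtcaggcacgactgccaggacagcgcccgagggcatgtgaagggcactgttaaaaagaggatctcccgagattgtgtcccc
Myl3: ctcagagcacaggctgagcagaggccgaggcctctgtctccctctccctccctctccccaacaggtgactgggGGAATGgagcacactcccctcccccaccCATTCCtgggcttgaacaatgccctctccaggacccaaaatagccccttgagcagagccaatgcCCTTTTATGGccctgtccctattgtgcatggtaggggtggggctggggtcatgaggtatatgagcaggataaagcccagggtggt
Myh4: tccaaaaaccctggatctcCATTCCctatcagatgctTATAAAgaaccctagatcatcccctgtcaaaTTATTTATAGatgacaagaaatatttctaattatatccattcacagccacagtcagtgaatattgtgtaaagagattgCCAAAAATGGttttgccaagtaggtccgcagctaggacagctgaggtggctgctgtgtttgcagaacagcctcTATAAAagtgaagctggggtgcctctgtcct
Myh4 held 3 matches to TATAAA, of which 1 lies inside the MEF2 match, and 1 each to CATTCC, MEF2 and the CArG box. Myl3 held 2 to CATTCC and 1 to the CArG box, Myl2 held 1 to TATAAA, and Myh7 held none in this window. The window of the other Myh7 start, not shown, held 1 match to CATTCC. Of 32851 windows of this length, 12.4% held TATAAA, 12.6% CATTCC, 2.92% the MEF2 and 1.47% the CArG box consensus. Of the 10 genes, 3, 5, 2 and 3 did, counted at the start farthest downstream.

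The atrial light chains spread over the hearts as the slow chains did over the muscles. KI mouse B was highest for both sets and A among the lower mice for both, while E was high for the atrial and low for the slow set. Myl7, the atrial regulatory light chain, was -2.55, 7.44 and 0.19 in the hearts of KI mice A, B and C and -2.12, 4.28 and -3.26 in the WT hearts of D, E and F. Myl4, the atrial essential light chain, was 1.27, 8.73 and 3.53 in the KI and 1.12, 6.99 and 1.11 in the WT hearts. B was highest, E next and C after it for both genes, so that 1 heart of each genotype led. The range over the 6 hearts was 1665-fold for Myl7 and 197-fold for Myl4, the widest and the second widest SD (4.31 and 3.33) of the 14394 genes well above background in all 6 hearts, where the median SD was 0.21. Outside that set, Sln and Mybphl had SDs of 5.57 and 3.99. Myh6, Myl2 and Myl3 had SDs of 0.13, 0.16 and 0.16 over the same hearts, and Myh7 of 0.39.

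Myl7 correlated with Myl4 over the 6 hearts at 0.994 (adjusted p = 0.0104, exact permutation test, rho 0.943). Without B and E this was 0.951, and within the slide that held A, B, D and E it was 0.995. Sln (sarcolipin), an inhibitor of the calcium pump that is abundant in atria, followed Myl7 at 0.975 (adjusted p = 0.00833, exact permutation test) and at 0.935 without B and E. Mybphl, an atrial relative of myosin binding protein H, gave 0.964 (adjusted p = 0.0208, exact permutation test) but only 0.435 without B and E. Nppa, the atrial natriuretic peptide, gave 0.912 (adjusted p = 0.0458, exact permutation test) and -0.850 without those hearts, so that its relation, like that of Mybphl, rests on B and E. Sln was well above background in 5 and Mybphl in 4 of the 6 hearts, so that their lowest values there are background signal. Nppa read 4.88, 9.03 and 4.49 in the KI and 5.28, 7.69 and 5.31 in the WT hearts.

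Against Myl7, the ventricular chains gave weaker correlations that did not pass the test, -0.480 for Myl2 (adjusted p = 0.393), -0.566 for Myh6 (adjusted p = 0.309) and -0.322 for Myh7 (adjusted p = 0.539), all by exact permutation test. Under quantile normalization Myl2 and Myh6 turned sign, to 0.338 and 0.209. The pairs in heart and muscle were chosen with earlier results of these data known. Of the 15 relations, 10 passed the threshold with Pearson's r and 7 with Spearman's rho. The genes closest to Myl7 over the 6 hearts were Abcg4 (r = 0.996), Myl4 (0.994), Pkd1 (0.987), Rnase4 (0.986) and Sytl4 (0.983), of 14393 others, with 271 above 0.9.

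A list of 8 atrial genes includes Sln, Nppa and Mybphl, already shown above. It had mean levels of -1.29 in the heart of KI mouse A, 3.48 in B and -0.37 in C, and of -1.06, 1.45 and -0.98 in WT mice D, E and F. Of its other genes, Kcnj3, Gja5, Bmp10 and Nr2f2 were highest in B. The next heart was that of E for Kcnj3 and Gja5, and that of F for Bmp10 and Nr2f2. Kcna5 went the other way, lowest in B (-0.06) and highest in F (0.98). The list of 6 ventricular genes was lowest in B, at 2.42, against 3.24 to 3.34 in the other 5 hearts. Smooth muscle markers were highest in B (3.87), E (3.47) and C (3.44) and lay between 2.35 and 2.87 in A, D and F, and their part in the spread was not tested. More atrial tissue in a sample and more atrial RNA per cell cannot be told apart here.

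**Figure D3:**
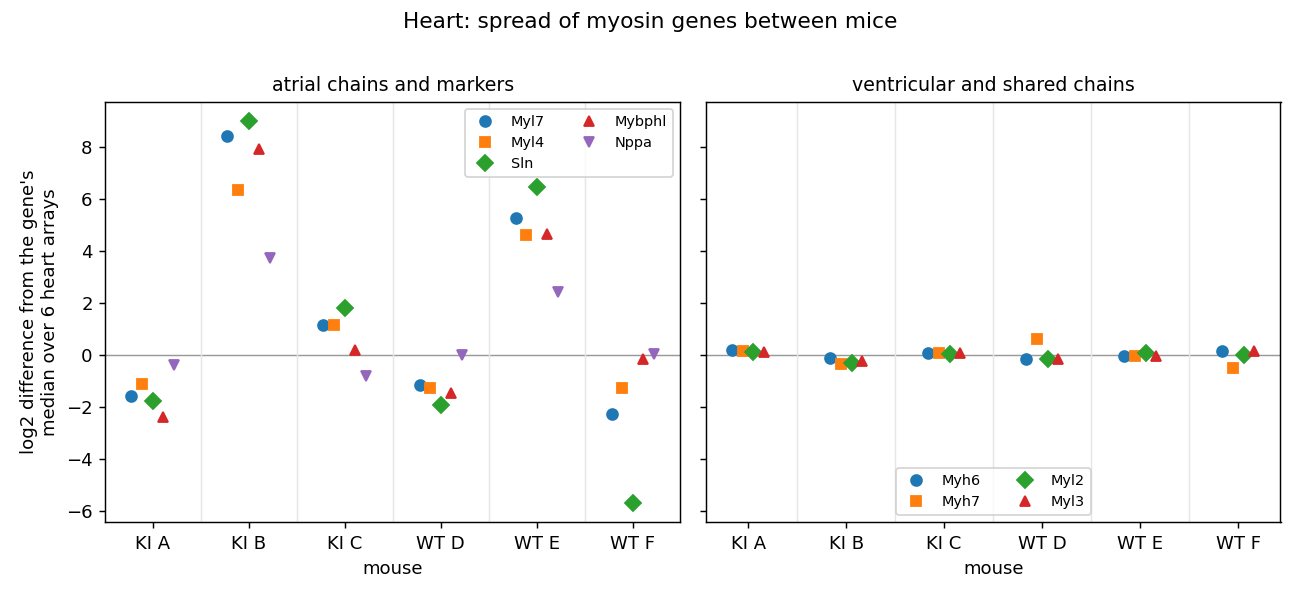
Difference of each gene from its own median over the 6 heart arrays (y axis, log2) for each mouse (x axis), atrial chains and markers on the left and ventricular or shared chains on the right. Myl7 and Myl4 are high in KI mouse B and WT mouse E, while Myh6, Myl2 and Myl3 keep within a 1.34-fold range.

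The promoters of the atrial chains, shown because both genes moved together between hearts, are the 250 bases before the start in RefSeq (GRCm38.p6), 5′ to 3′, at chr11:104550413-104550662 (+ strand) for Myl4 and at chr11:5898783-5899032 (- strand) for Myl7, with the same motifs in capitals.
Myl4: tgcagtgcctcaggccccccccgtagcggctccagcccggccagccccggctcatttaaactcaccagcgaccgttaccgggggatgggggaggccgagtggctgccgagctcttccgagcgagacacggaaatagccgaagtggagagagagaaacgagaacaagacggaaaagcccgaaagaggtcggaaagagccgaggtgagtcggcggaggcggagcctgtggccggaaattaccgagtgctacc
Myl7: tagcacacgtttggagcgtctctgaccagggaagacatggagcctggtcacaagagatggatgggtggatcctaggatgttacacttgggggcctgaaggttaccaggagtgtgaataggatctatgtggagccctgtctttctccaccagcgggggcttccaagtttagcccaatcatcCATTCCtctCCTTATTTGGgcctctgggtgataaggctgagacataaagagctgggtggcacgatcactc
Myl7 held 1 match to CATTCC and 1 to the CArG box a few bases apart, and Myl4 held none of the letters searched.

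Between heart and muscle, 8 of the 10 genes differed in the 24-array limma fit, 4 higher and 4 lower in heart, where 69.2% of all 14689 genes tested were called, 33.4% higher and 35.8% lower. The count is thus read against a high background. The fast chains Myh1, Myh2 and Myh4 were lower in heart by fitted differences of -16.42, -15.01 and -17.12, and Mylpf by -1.52. The heart signals of Myh1 and Myh4 were background, so that muscle is higher by at least 14.22 and 15.03 in log2. Those of Myh2 were background in all hearts but that of KI mouse B. Those higher in heart were Myh6, Myl7 (6.23, SE 1.28, adjusted p = 2.68e-04, and at least 30.8-fold), Myl2 (3.48, SE 1.18, adjusted p = 0.0137) and Myl3 (3.00, SE 1.07, adjusted p = 0.0186). Muscle and heart did not overlap for Myh1, Myh2, Myh4, Myh6, Mylpf and Myl7, as for 47.6% of all genes. For Myl2 the muscle of KI mouse B lay among the hearts, and for Myl3 above all of them.

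The calls on Myl2, Myl3 and Myl7 were lost with slide as a block. All muscle arrays and the hearts of C and F were on 1 slide and the other hearts on another. With slide as a block the difference thus comes from the hearts of C and F alone, without B and E, the highest for Myl7. With slide as a block 5 of the 10 genes were called, Myh1, Myh2, Myh4, Myh6 and Mylpf, and 55% of all genes were. Myl7 was then 4.03 (adjusted p = 0.062), Myl2 3.53 (adjusted p = 0.103) and Myl3 3.13 (adjusted p = 0.111). The differences of Myl2 and Myl3 hardly moved, while their SE rose from 1.18 to 1.77 and from 1.07 to 1.61. Whether the slide or the smaller number of hearts cost these calls was not tested. The call on Myl3 was also lost without the muscle of KI mouse A (1.91, adjusted p = 0.0629), without that of WT mouse E (2.02, adjusted p = 0.0663), with the WT arrays alone (adjusted p = 0.0564) and with the spread taken from the 12 arrays of heart and muscle (adjusted p = 0.0624).

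Myl4 did not differ between heart and muscle (0.48, 95% interval -1.58 to 2.54, adjusted p = 0.677). Its muscle values ran from 2.93 to 3.95, above the hearts of A, D and F, below those of B and E, and with that of C, at 3.53, among them. The direction turned without the heart of KI mouse B (-0.58), without that of WT mouse E (-0.50) and with slide as a block (-0.99, adjusted p = 0.562). In brain Myl4 was at 2.45 to 3.41, which did not differ from muscle (0.54, adjusted p = 0.617) or heart (1.02, adjusted p = 0.347) in the 24-array fit. With the 12 arrays of muscle and brain alone the former did pass (adjusted p = 0.0265). The lowest tissue was liver, at -0.74 to -0.33.

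**Figure D4:**
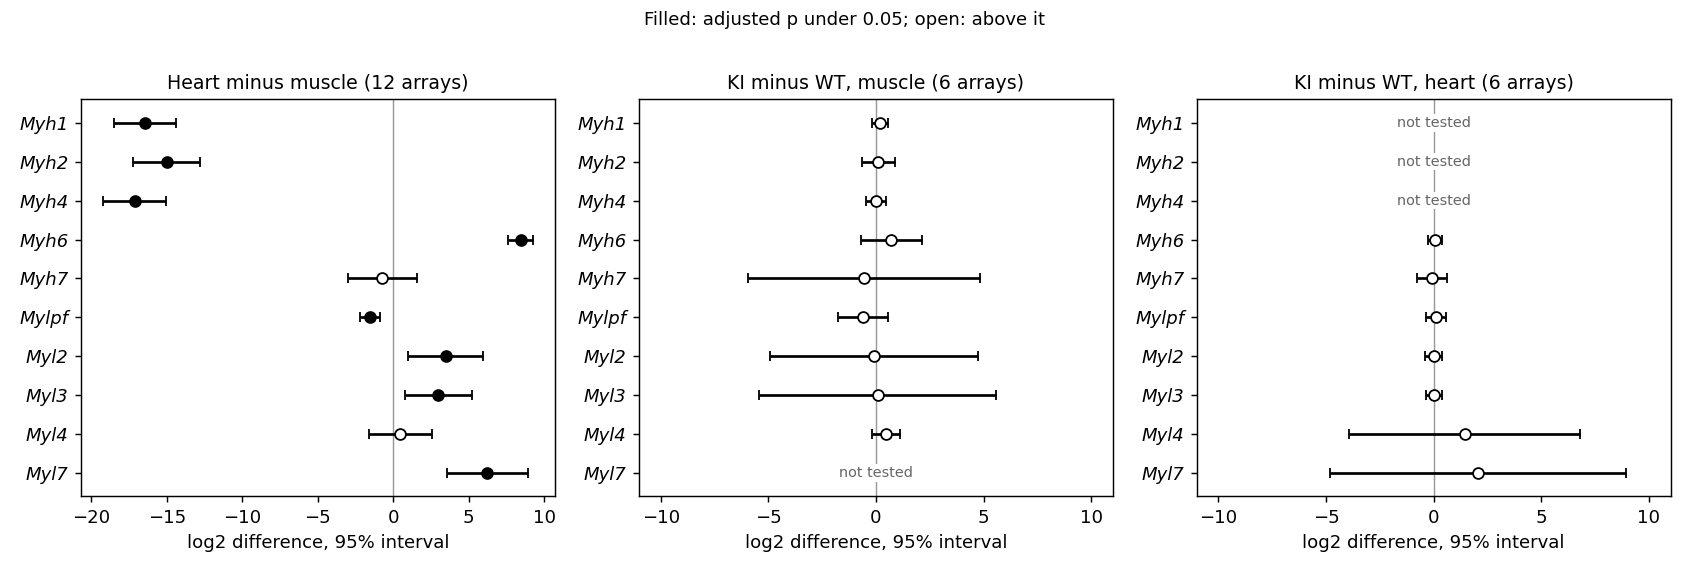
Fitted log2 differences with 95% intervals (x axis) for each of the 10 genes: heart minus muscle (left), KI minus WT in muscle (middle) and KI minus WT in heart (right), filled where the adjusted p was under 0.05. Of the heart against muscle differences 8 are filled, and none of the KI against WT differences is. Background signal enters the left panel for Myh1, Myh2 and Myh4 in heart and for Myl7 in muscle.

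Outside striated muscle, the chains were found as traces that differed by gene. Muscle exceeded liver for all 9 genes tested (84.4% of all genes called, 44.2% higher), by 0.70 for the Mylpf probe used and at least 392.2-fold for its other probe, and exceeded brain for 8 of 9 (84.2%, 46.3% higher), all but Myl4. Heart differed from liver for 7 of 7 (80.2%, 41.8% higher and 38.3% lower), of which Mylpf was lower (-0.82, adjusted p = 0.0225), and from brain for 9 of 10 (81.2%, 44.7% higher and 36.5% lower), all but Myl4. In the last comparison Myh1, Myh2 and Myh4 were lower in heart and the other 6 higher. These heart differences of Mylpf hold for the probe used only, since its other probe was not well above background in any heart, liver or brain. The call on Mylpf between muscle and liver, with the probe used, was lost under quantile normalization (0.46, adjusted p = 0.171), with the z-scores, with array weights, in 7 of 12 fits without 1 array and with slide as a block (adjusted p = 0.355). With slide as a block the Mylpf call between heart and liver was lost (adjusted p = 0.258), and so were those of Myh7 in brain (adjusted p = 0.114 against muscle and 0.0608 against heart). Muscle and liver lay on different slides, and brain and liver RNA was extracted with another kit than heart and muscle RNA, so that kit and tissue type cannot be told apart. On the slide with 4 hearts and 4 brains the difference was 3.07 for Myh7, 10.68 for Myl2 and 13.17 for Myl3.

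In the liver of KI mouse C, 6 of the 10 genes were above all other livers. Myh1 was 1.37 there and -7.53 to -5.71 in the other 5, Myh2 was 1.93 against -7.37 to -5.32, and Myh4 was 1.48 against -7.50 to -5.64. Myh7 was -0.60 against -5.03 to -4.45, Myl2 -0.02 against -7.33 to -5.53 and Myl3 -0.07 against -3.98 to -3.42. This liver therefore stood alone for the fast and the slow chains. It did not for Myh6, Myl4, Myl7 and Mylpf, where another liver was higher. Relative to the muscle of the same mouse the level was 0.351% for Myh4, 0.521% for Myh1, 0.745% for Myh2, 0.578% for Myl3, 1.62% for Myh7 and 2.44% for Myl2.

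Other skeletal muscle genes were present in that liver as well, Myl1 at 0.375%, Ckm (muscle creatine kinase) at 0.0921% and Sln at 10.6% of the level in the mouse's muscle. Cardiomyocyte markers, 9 genes, averaged -5.20 to -4.01 over the 6 livers, highest in that of C, with F next at -4.07. Of these genes Tnnt2, Tnni3 and Actc1 were highest in C. Ryr2, Nppa, Pln, Nkx2-5, Gata4 and Myocd were highest in another liver. The Myh1, Myh2, Myh4 and Myl2 probes were also well above background in the liver of WT mouse D, at -5.71, -5.32, -5.64 and -5.53, and in no further liver. Without the liver of KI mouse C, all 9 genes were called higher in muscle than in liver, as with it. Myl3, well above background in every liver, then differed by 9.95 instead of 9.34. No size is given for Myh1, Myh2, Myh4 and Myl2, which were well above background in only 1 of the 5 other livers, that of D. Heart against liver then had 6 calls, with Mylpf at -0.57 (adjusted p = 0.0812).

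**Figure D5:**
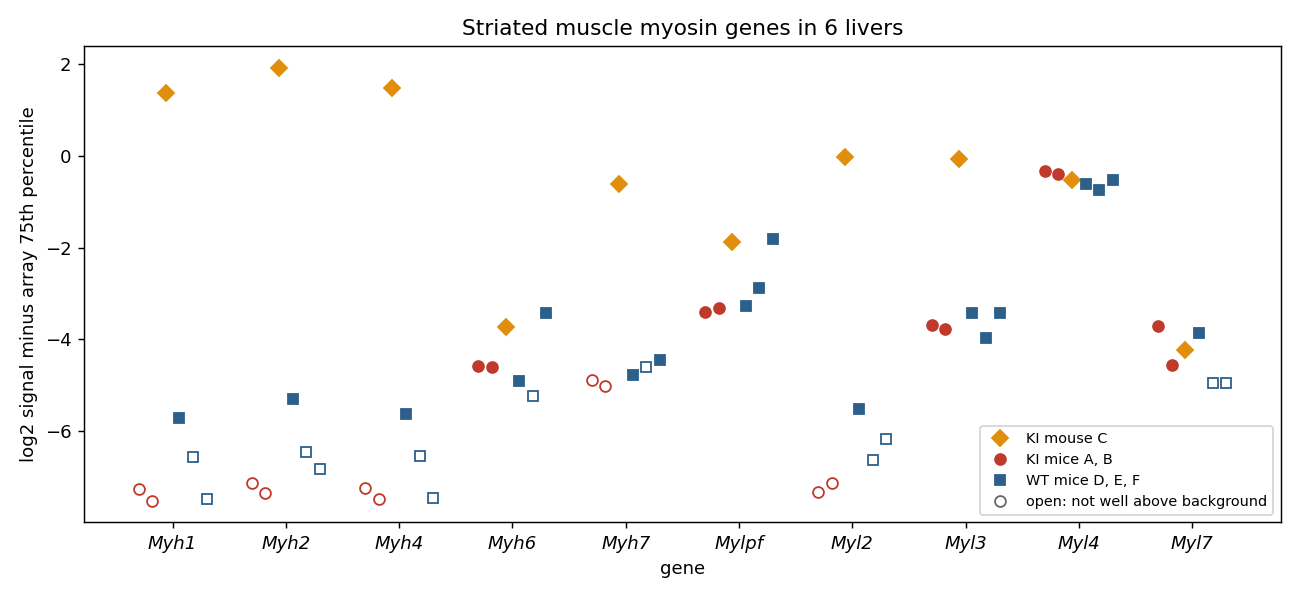
Level of the 10 genes in 6 livers (y axis, log2 signal minus the array's 75th percentile), KI mouse C as diamonds, the other KI mice as circles and WT mice as squares, open where not well above background. The diamonds are above all other livers for Myh1, Myh2, Myh4, Myh7, Myl2 and Myl3.

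KI and WT mice were compared within each tissue, the main question of the design. No myosin gene was called in any tissue, and no gene on the array was (0% of 13513 in muscle, of 14926 in heart, of 14084 in liver and of 16065 in brain), with limma and Benjamini-Hochberg adjustment. At an unadjusted p under 0.05 there were 117, 244, 1667 and 127 genes, or 0.866%, 1.63%, 11.8% and 0.791%. Of the 10 genes only Mylpf in brain, with the probe used, was among them. Tested were 9 of the 10 in muscle, 7 in heart, 5 in liver and 9 in brain, the rest being too dim. In muscle and heart the 3 KI and 3 WT values overlapped for every gene tested of the 10, while 3.62% and 5.03% of all genes did not overlap. Replicate mice were separate animals.

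In muscle the slow set gave wide intervals, since A and E, low for these genes, are 1 of each genotype. KI minus WT was -0.56 for Myh7 (95% interval -5.96 to 4.83), -0.11 for Myl2 (-4.94 to 4.73) and 0.07 for Myl3 (-5.44 to 5.58). The fast heavy chains gave narrower ones, -0.00 for Myh4 (-0.48 to 0.47), 0.19 for Myh1 (-0.20 to 0.58) and 0.11 for Myh2 (-0.66 to 0.87). Myl4 differed by 0.48 (-0.16 to 1.12), Myh6 by 0.71 (-0.69 to 2.12) and Mylpf by -0.59 (-1.74 to 0.56).

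In heart KI minus WT was 2.06 for Myl7 (95% interval -4.83 to 8.95) and 1.43 for Myl4 (-3.94 to 6.81). Both turned sign without the heart of KI mouse B (-0.81 and -0.68). In heart the slides split by age, with the 14-month mice C and F on 1 and the 15-month mice on the other. Within the slide of the 15-month hearts, 2 against 2, Myl7 differed by 1.37 and Myl4 by 0.94, and C exceeded F by 3.45 and 2.42. The other chains were closely bounded with the probes used, at 0.06 for Myh6 (-0.28 to 0.40), -0.08 for Myh7 (-0.77 to 0.61), -0.01 for Myl2 (-0.38 to 0.36), 0.00 for Myl3 (-0.37 to 0.37) and 0.11 for Mylpf (-0.35 to 0.57). With its other probe Myh6 differed by -0.27, and the other Mylpf probe was not well above background in any heart.

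In liver Myl4 was higher in all 3 KI than in all 3 WT mice, by 0.21 (95% interval -0.09 to 0.50, adjusted p = 0.501), where 19.7% of all genes did not overlap. Myl3 differed by 1.10 (-1.22 to 3.42) with the liver of KI mouse C and by -0.13 without it. Myh6 differed by 0.23, Myl7 by 0.42 and Mylpf by -0.21 with adjusted p from 0.501 to 0.874 over the 5 genes tested. In brain the groups did not overlap for the Mylpf probe used, nor for 2.94% of all genes. This probe was higher in KI by 0.49 (0.10 to 0.89, unadjusted p = 0.0219, adjusted p = 1, limma), and by 0.76 and 0.36 within the 2 slides. It was dim in brain, at -5.18 to -4.37, and the other Mylpf probe was not well above background in any brain. The other 8 genes differed by -0.32 to 0.39. Whether the KI effect differed between heart and muscle was tested for 6 of the 10 genes and none was called (0% of 12715 genes, with 126, or 0.991%, at an unadjusted p under 0.05).

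The myosin genes beside these 10 fell into 2 lists. Of 5 other sarcomeric myosin genes, 1 was higher and 3 were lower in heart than in muscle, with a median difference of -4.76, against -0.01 over all genes and -0.12 over the 10 genes. Of all genes, 33.4% were higher and 35.8% lower, which is the background for this list and those that follow. Those lower were Myh3, the embryonic heavy chain (at least 78.0-fold, adjusted p = 1.03e-11), Myh13, the extraocular chain (at least 10.2-fold), and Myl1, the fast essential light chain (-5.48, adjusted p = 3.75e-05), and Myh7b was higher. Myh8, the neonatal chain, read 9.74 to 10.43 in muscle and 7.997 to 8.35 in heart (-1.81, adjusted p = 0.164 in limma). The muscle and heart values thus did not overlap. The error of that fit is shared by all tissues. The SD of Myh8 was 0.26 in muscle and 0.14 in heart but 3.86 in liver. In the liver of KI mouse C it read 2.86, against -7.36 to -3.87 in the others, and no fit without that liver is given. Heavy chain genes are close copies of each other and the sequence of the Myh8 probe was not used here, so its target was not checked. Myh1 and Myh4 were not well above background in the same hearts. Myh3 in muscle was 0.19, 3.29 and 0.39 in the KI and 1.36, -0.74 and 1.24 in the WT mice, highest in B.

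Of 9 smooth muscle and non-muscle myosin genes, 4 were higher and 1 lower in heart (33.4% and 35.8% of all genes), with a median of 0.12. Myh11, the smooth muscle heavy chain, differed by 0.04 (adjusted p = 0.906). The called differences were small, between 0.37 and 0.59 for those higher, apart from Myl6b (-2.96). In the KI against WT comparisons no gene of either list was called.

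Partners of myosin in the thick filament split by isoform. Of 16 genes, 14 were tested, and 2 were higher and 8 lower in heart, or 10 of 14 called where 69.2% of all genes were. Mylk2, the skeletal myosin light chain kinase, was lower (-11.54, adjusted p = 8.89e-18), as was Mybph, which was well above background in 2 of 6 hearts and in all muscles. Mybpc3, the cardiac myosin binding protein C, was at least 6454-fold higher in heart, and the cardiac kinase Mylk3 was higher too, with 2 of 6 muscles well above background. Against 33.4% higher and 35.8% lower over all genes, all 10 fast fibre genes were lower in heart (median -11.66), and of 8 slow fibre genes 5 were higher and 2 lower (median 3.44). All 6 ventricular genes were higher (median 5.32), and of 6 atrial genes tested 4 were higher and 1 lower (median 0.97). Nppa was higher by 9.47 (adjusted p = 1.71e-10), while Sln, present in both tissues and spread in both, differed by -2.95 (adjusted p = 0.183).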

How the data were processed

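Total RNA of 24 tissue samples was labelled and hybridised to 1-colour Agilent mouse arrays, 8 arrays on each of 3 slides. The authors extracted spot intensities with Agilent Feature Extraction 12.0.3.1 per the file headers, and of the deposited intensities the processed signal was used, corrected for background by that program and not normalized between arrays. A score table of 33912 features deposited beside them matched z-scores of the log signal within each array to 0.005 and served as an alternative. The array was designed on an older genome build than GRCm38.p6.

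Control and outlier spots were left out of 62976, spots of a probe were averaged (55681 probes), and log2 signals were set against the array's 75th percentile. Probes were named through RefSeq accessions (50.9%), giving 21368 genes, of which 5754 had several probes and were represented by the probe with the highest mean. Every sample column could be assigned.

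Genes were tested if well above background on all 3 arrays of a genotype (KI against WT, 6 arrays per tissue), on all 6 of either tissue (24-array fit of 8 group means) or on all 12. limma 3.58.1 in R 4.3.3 (lmFit, eBayes, two-sided) and Benjamini-Hochberg adjustment over all genes tested were used at 0.05, after a check on simulated data. A single gene compared 3 against 3 by exact permutation cannot go below p = 0.1. A bound ("at least") sets the bright tissue's mean against the mean, per array of the dim tissue, of the higher of its dimmest signal well above background and the probe's own. Relations between genes over 6 mice were tested by exact permutation of all pairings. The genes, lists and pairs were chosen with earlier results of these data known. All 10 genes are named, with called genes of the lists, at most 4 a comparison by smallest p, Myh3, Myh8, Myh11, Nppa, Sln and Myl1 whatever their values, and the 5 genes most correlated with Myl7 in heart and with Myh7 and Myh4 in muscle. Mybph, Mybpc3, Mylk3, Myh13, Myl6b, Myh7b and Ckm were named after their values were seen. Same-numbered tissues came from the same animal, so that numbers pair samples across tissues, and deviations of heart and muscle correlated at a mean of 0.05 within a mouse (-0.12 to 0.28 over 6 mice) and of -0.02 between mice.

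Alternatives were normexp background correction (offset 50), quantile normalization, the percentile over probes detected on all arrays, the z-scores, the mean of a gene's probes, no filter, array weights, all arrays in 1 fit, WT arrays alone, slide or mouse as a block and leaving out each array. Promoter and miRNA sequences are from RefSeq tables of GRCm38.p6, and no protein sequence was used here.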

Additional observations from a re-analysis of the deposited data

Results flagged for a closer look

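In 40 sets of 6, each gene in each tissue, 7 had a highest or lowest mouse separated from the next by more of the whole range than Dixon's 95% criterion allows, which chance alone gives in about 1 of 20 sets. Of the 7, 6 are the liver of KI mouse C. Its levels were 1.37 for Myh1, 1.93 for Myh2, 1.48 for Myh4, -0.60 for Myh7, -0.02 for Myl2 and -0.07 for Myl3, where the nearest other liver was at -5.71, -5.32, -5.64, -4.45, -5.53 and -3.42. The same liver held skeletal muscle fibre markers at a mean of -0.31, against at most -4.39 in the others, and their part in these values was not tested.

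The remaining one is Myh2 in the brain of WT mouse F, at -1.68, where the other 5 brains lay between -2.73 and -2.50.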

How the results depend on the processing

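Counts of myosin genes called stayed at 0 in every KI against WT comparison and in the comparison of that effect between heart and muscle, under every alternative run. They ranged from 8 to 9 for muscle against liver, 7 to 9 for muscle against brain, 6 to 7 for heart against liver and 7 to 9 for heart against brain, and from 5, with slide as a block, to 8 for heart against muscle. The alternatives with slide as a block between tissues, with the other probe of Mylpf and Myh6, and with only the arrays of the compared tissues were chosen after seeing the data. Of 41 called differences 9 were lost and 1 was reversed in some alternative, and of 40 not called 1 passed and 28 changed sign. The causes were not tested. Over all genes, KI against WT had 1 call in muscle with array weights, 4 in muscle without KI mouse A, 1 in heart without KI mouse C and 2 in liver with all 24 arrays in 1 fit, against 0. Of 15 relations 9 to 11 passed under the other scalings. Depth is unknown for arrays, and with 3 arrays a group their number and the signal over background limit the precision.

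With the mouse as a replicate block, fitted by limma over tissues of the same animals, the counts were 8, 9, 8, 7 and 9 for heart against muscle, muscle against liver, muscle against brain, heart against liver and heart against brain, as without it, and 0 for the KI effect in heart against muscle, and no other call changed.

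Signs that turned, all in differences not called except where stated, were as follows. With array weights KI minus WT was -0.08681 for Myl4 in muscle, -0.1554 for Mylpf and 0.1518 for Myl2 in heart and -0.1663 for Myh6 in liver. Heart minus muscle was then -0.7054 and heart minus brain -0.002211 for Myl4, and the KI effect in heart minus that in muscle 2.117 for Myl3. With normexp, KI minus WT was -0.003889 for Mylpf in heart and 0.00783 for Myh1 in brain. With quantile normalization it was 0.002539 for Myh7 and -2.159e-05 for Myl3 in heart and -0.003293 for Myl2 in brain, and the correlations of Myl7 in heart were 0.338 with Myl2 and 0.2088 with Myh6. With the percentile over probes detected on all arrays it was 0.06726 for Myl2 in heart, and the KI effect in heart minus that in muscle was 0.02314 for Myl3. The deposited z-scores gave 0.02 for Myl2 in heart, -0.01667 for Myl2 in brain and 0.01 for Myl3 in that comparison of KI effects. With the mean of all probes Myh6 was -0.1046 in heart. The other probe gave -0.2707 in heart and -0.1482 in liver for Myh6, and -1.233 for the called difference of Myh6 between muscle and liver. With slide as a block and within the shared slide Myl4 was -0.9943 for heart minus muscle.

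Leaving out 1 array at a time reversed no called difference, and the calls lost, on Myl3 and Mylpf, number 12 of these refits. In muscle KI minus WT then ran from -0.21 to 0.31 for Myh2, -0.15 to 0.11 for Myh4, -2.58 to 1.35 for Myh7, -1.94 to 1.81 for Myl2 and -1.88 to 2.24 for Myl3. In heart it ran from -0.004211 to 0.14 for Myh6, -0.34 to 0.21 for Myh7, -0.10 to 0.11 for Myl2, -0.06392 to 0.12 for Myl3, -0.68 to 3.39 for Myl4, -0.81 to 4.38 for Myl7 and -0.02621 to 0.31 for Mylpf. In liver it ran from -0.12 to 0.78 for Myh6, -0.13 to 1.73 for Myl3 and -0.71 to 0.21 for Mylpf. In brain it ran from -0.19 to 0.21 for Myh1, -0.52 to 0.0004266 for Myh2, -0.31 to 0.69 for Myh6, -0.36 to 0.21 for Myh7 and -0.13 to 0.19 for Myl2. Heart minus muscle ran from -1.68 to 0.28 for Myh7 and -0.58 to 1.29 for Myl4. Heart minus brain ran from -0.03669 to 1.83 for Myl4. The KI effect in heart minus that in muscle ran from -1.43 to 2.50 for Myh7, -1.82 to 1.93 for Myl2, -2.24 to 1.88 for Myl3 and -1.16 to 2.92 for Myl4.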

Other observations

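Sarcolipin, the small inhibitor of the sarcoplasmic calcium pump, spread in both striated tissues and followed the chains of each. In muscle Sln was at -0.09, 7.20 and 2.66 in KI mice A, B and C and at 4.92, 0.77 and 4.61 in WT mice D, E and F, lowest in A and E, where Myh7 was lowest. In heart it was at -2.69, 8.09 and 0.88 in the KI and at -2.85, 5.55 and -6.62 in the WT mice, highest in B and E, where Myl7 was highest. KI mouse B was highest in both tissues and A low in both, while WT mouse E was low in muscle and high in heart and WT mouse F was lowest in heart. Sln was well above background in 5 of the 6 hearts.

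Myl1, the fast essential light chain, was at 9.20 to 9.83 in muscle, lowest in KI mouse B, and at 3.14 to 5.90 in heart, highest in the same mouse. Mybphl was at 3.72 and 0.46 in the hearts of B and E and between -6.60 and -4.03 in the other 4, with 4 of the 6 hearts well above background.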
